A study of Rattus norvegicus with 6 samples.

Results

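The genes described here are 40 genes of liver macrophages, that is, of Kupffer cells and of the myeloid cells related to them. They were taken from a list of symbols: each probe on the array whose RefSeq accession belongs to 1 of the 40 genes was a member. This gave 61 probes of 61657 non-control probes, for all 40 of the 15284 genes that could be named. Of these, 57 probes and 38 genes were bright enough to be tested, among 10609 genes tested in all. By their known roles, 16 genes were treated as genes of resident Kupffer cells, 21 as pan-myeloid genes and 3 as monocyte genes. The livers came from male Sprague-Dawley rats of 9 weeks, an outbred stock, all of which had received corn oil at 5 mL/kg/day. Of these rats, 3 were killed after isoflurane, an inhaled anaesthetic, and 3 after a mixture of CO2 and O2; RNA of each rat was hybridised to 1 one-colour array. The labels disagree on how long corn oil was given (3 days in the design text, 9 weeks in the treatment protocol), and no rat without anaesthesia was measured.

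Kupffer cells are the resident macrophages of the liver. They sit inside the sinusoids, where they take up bacteria, ageing red cells and complement-coated particles from portal blood, and they depend on signalling through the receptor Csf1r. Monocytes arriving from blood carry Ccr2 or Cx3cr1 and can replace lost Kupffer cells, whereas pan-myeloid genes are shared by Kupffer cells, monocytes, neutrophils and other myeloid cells. In RNA from whole liver, fewer cells of a type and less RNA per cell cannot be told apart.

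No array had a saturated spot. The share of probes well above background was 56.9%, 60.2% and 62.3% in CO2/O2 replicates 1 to 3. It was 60.6%, 53.4% and 55.7% in isoflurane replicates 1 to 3, so that isoflurane replicates 2 and 3 had the lowest shares. All 6 arrays were on 1 slide. Those of the CO2/O2 rats held the first 3 places of slide row 1, isoflurane replicate 1 held the last place of that row, and isoflurane replicates 2 and 3 began row 2. Anaesthesia and place on the slide therefore ran together (r = 0.878 between them over the 6 arrays). Values are log2 intensities less the array's 75th percentile, so that 0 is that percentile, and every difference is isoflurane minus CO2/O2 on this log2 scale. All 16 resident Kupffer genes and all 21 pan-myeloid genes were well above background on all 6 arrays at the probe taken for the gene, the brightest one. Of the 3 monocyte genes this held for Cx3cr1. Defining markers of Kupffer cells were thus present in every liver.

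Macrophage genes had mostly negative differences, by modest amounts. Of the 38 genes tested, 36 had a negative difference, against 52.9% of all genes tested, and their median difference was -0.30, against -0.01 over all genes. None passed the test: 0 of 38 reached an adjusted p of 0.05 in limma over all probes (0% of all genes did), and the smallest adjusted p among them was 0.536. At an unadjusted p under 0.05 there were 15 of 38 with a negative difference, against 4.85% of all genes, and 0 with a positive one, against 2.72%. All isoflurane values lay below all CO2/O2 values for 16 of the 38, against 8.16% of all genes, and all above for 0, against 6.01%. No member reached a 2-fold difference, and the 95% interval lay within 2-fold for 35 of them. These genes vary together across the arrays, so their counts are not independent of each other. With a straight slope over slide place in the model, 21 of 38 differences stayed negative and their median was -0.02, with a median standard error of 0.24 against 0.13 without the slope. An effect of anaesthesia and one of slide place cannot be told apart here.

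**Figure D1:**
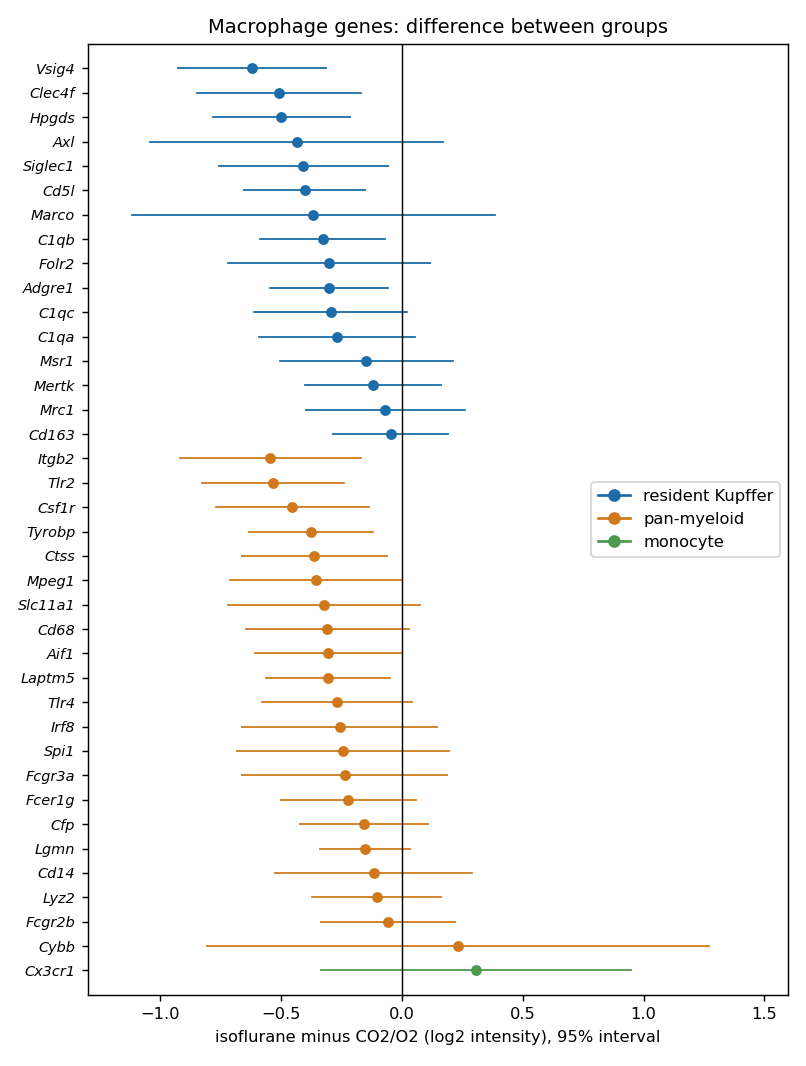
Difference between groups (isoflurane minus CO2/O2, log2 intensity, x axis) for each of the 38 macrophage genes tested (y axis), with its 95% interval from limma, 3 rats per group. Points are coloured by role, and 36 of 38 lie left of 0, with 15 intervals wholly below 0.

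Genes of resident Kupffer cells had negative differences in 16 of 16, against 52.9% of all genes, with a median of -0.31 and a range from -0.62 to -0.05. In 7 of the 16 all isoflurane values lay below all CO2/O2 values, against 8.16% of all genes. Vsig4 encodes a complement receptor by which Kupffer cells catch blood-borne bacteria. Its values were 1.65, 1.63 and 1.34 in CO2/O2 replicates 1 to 3 and 1.05, 0.77 and 0.95 in isoflurane replicates 1 to 3. Every isoflurane rat was below every CO2/O2 rat, with a difference of -0.62 ± 0.13 (SE, n = 3 per group; limma adjusted p = 0.536), or 1.54-fold. It was the member with the largest difference.

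Clec4f, a lectin that marks Kupffer cells in rodents, had values of 6.64, 6.68 and 6.34 after CO2/O2 and 6.23, 6.05 and 5.86 after isoflurane. The groups did not overlap, and the difference was -0.51 ± 0.14 (limma adjusted p = 0.569). Hpgds, the hematopoietic prostaglandin D synthase, had values of 0.61, 0.56 and 0.30 against 0.02, 0.08 and -0.13. It had a difference of -0.50 ± 0.12, again without overlap. Cd5l, a secreted scavenger protein of tissue macrophages, had values of 3.48, 3.30 and 3.23 against 3.00, 2.83 and 2.97. Its difference was -0.40 ± 0.10 (limma adjusted p = 0.565), and its second probe gave -0.35, both without overlap.

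The complement protein C1q, which macrophages secrete, is built of chains encoded by C1qa, C1qb and C1qc. C1qb had values of 6.22, 6.38 and 6.06 under CO2/O2 and 5.96, 5.87 and 5.84 under isoflurane, a difference of -0.33 ± 0.11 without overlap. C1qc had values of 3.12, 3.15 and 2.77 against 2.85, 2.61 and 2.69, so that isoflurane replicate 1 stood above CO2/O2 replicate 3. Its difference was -0.30 ± 0.13. For C1qa the difference was -0.27 ± 0.13, also with overlap. Over the 6 probes of the 3 chains, differences lay between -0.36 and -0.27.

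Adgre1, an adhesion receptor long used as a macrophage marker, had values of 1.58, 1.35 and 1.33 after CO2/O2 and 1.05, 1.18 and 1.13 after isoflurane. The groups did not overlap, and the difference was -0.30 ± 0.10. Siglec1, a sialic acid receptor of tissue macrophages, had values of 1.77, 1.80 and 1.35 against 1.33, 1.13 and 1.24. Its groups were separated by a narrow margin, with a difference of -0.41 ± 0.14, and its second probe gave -0.42 with overlap.

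The stretches just before the start sites of some of these genes are shown as a description. A link between them and the values on the arrays was not tested. RefSeq promoters of assembly GRCr8 were at hand for 29 of the 40 members, and the 250 bases before the start were searched on both strands for TGCTGA, a core element bound by MAF factors, and for GAGGAAGT, a site of the myeloid factor PU.1. The MAF element was found in 5 of 12 resident Kupffer promoters (Adgre1, C1qa, C1qb, Cd5l and Folr2), in 1 of 14 pan-myeloid promoters (Tlr4) and in 15.2% of 27457 promoters. The PU.1 site was found in 0 of 12 and 2 of 14 (Ctss and Fcgr3a), against 2.04% of all promoters. Capitals mark a match, and all are written 5′ to 3′ on the strand of the gene. The first line, of Vsig4, held no match to these letters.
Vsig4 (chrX:65179709-65179958, minus strand): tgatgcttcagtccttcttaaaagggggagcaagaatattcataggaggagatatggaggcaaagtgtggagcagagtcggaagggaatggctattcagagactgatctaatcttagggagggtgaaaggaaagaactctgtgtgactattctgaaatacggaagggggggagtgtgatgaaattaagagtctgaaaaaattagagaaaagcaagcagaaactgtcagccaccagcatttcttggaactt
Cd5l (chr2:175088665-175088914, plus strand): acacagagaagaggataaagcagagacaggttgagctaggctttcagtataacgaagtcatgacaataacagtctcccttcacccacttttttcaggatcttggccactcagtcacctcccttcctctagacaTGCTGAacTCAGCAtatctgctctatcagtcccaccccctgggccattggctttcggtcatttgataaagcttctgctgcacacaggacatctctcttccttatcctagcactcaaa
C1qb (chr5:154407828-154408077, minus strand): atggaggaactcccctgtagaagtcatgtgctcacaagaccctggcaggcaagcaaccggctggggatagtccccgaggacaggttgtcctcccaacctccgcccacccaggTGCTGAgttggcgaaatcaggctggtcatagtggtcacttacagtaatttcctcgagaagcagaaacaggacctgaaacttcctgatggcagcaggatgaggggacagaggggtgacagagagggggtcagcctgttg
Adgre1 (chr9:2329190-2329439, plus strand): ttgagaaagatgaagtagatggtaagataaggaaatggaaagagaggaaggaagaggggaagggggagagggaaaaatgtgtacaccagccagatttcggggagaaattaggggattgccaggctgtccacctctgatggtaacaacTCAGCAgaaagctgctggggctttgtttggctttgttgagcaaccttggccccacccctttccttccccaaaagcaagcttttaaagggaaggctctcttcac
Ctss (chr2:185775146-185775395, plus strand): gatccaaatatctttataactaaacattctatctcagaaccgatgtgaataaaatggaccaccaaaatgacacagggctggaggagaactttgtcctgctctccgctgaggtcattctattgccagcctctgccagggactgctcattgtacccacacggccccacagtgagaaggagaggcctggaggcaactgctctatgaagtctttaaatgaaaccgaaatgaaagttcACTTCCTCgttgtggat
In Cd5l the element occurs on both strands with 2 bases between, beginning 117 bases before the start. The PU.1 match of Ctss begins 17 bases before the start. A match of letters is a description and does not show that a factor binds there.

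Other resident Kupffer genes were less separated. Marco, a scavenger receptor, had the widest spread among CO2/O2 rats, at 1.53, 0.90 and 0.25, against 0.42, 0.64 and 0.52 in isoflurane rats. Its difference of -0.37 ± 0.31 rested on CO2/O2 replicate 1, being -0.05 without it. Axl, a receptor for dying cells, had -0.44 ± 0.25 with its lowest value, -3.69, in isoflurane replicate 3; its difference was -0.17 without that rat and -0.17 with normexp background correction. The folate receptor Folr2 had -0.30 ± 0.17, the scavenger receptor Msr1 -0.15 ± 0.15 and Mertk, another receptor for dying cells, -0.12 ± 0.12, all with overlap. Without isoflurane replicate 2, Folr2 had -0.18 and Mertk -0.01, and without isoflurane replicate 3, Msr1 had -0.03.

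Cd163, the receptor for hemoglobin bound to haptoglobin, had values of 1.87, 1.66 and 1.63 under CO2/O2 and 1.745, 1.62 and 1.64 under isoflurane. The groups overlapped, with a difference of -0.05 ± 0.10 and a 95% interval from -0.28 to 0.19 at this probe. Its other, dimmer probes gave -0.21 ± 0.17 and -0.38 ± 0.11, the last without overlap and outside that interval. The interval of the brightest probe therefore does not bound the difference of the gene. Mrc1, the mannose receptor, had values of 2.54, 2.35 and 2.68 against 2.64, 2.26 and 2.46, a difference of -0.07 ± 0.14, and its second probe gave 0.02. Both groups of Mrc1 values covered nearly the same range. Mrc1 is also made by the sinusoidal endothelium, as is Fcgr2b of the pan-myeloid genes.

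**Figure D2:**
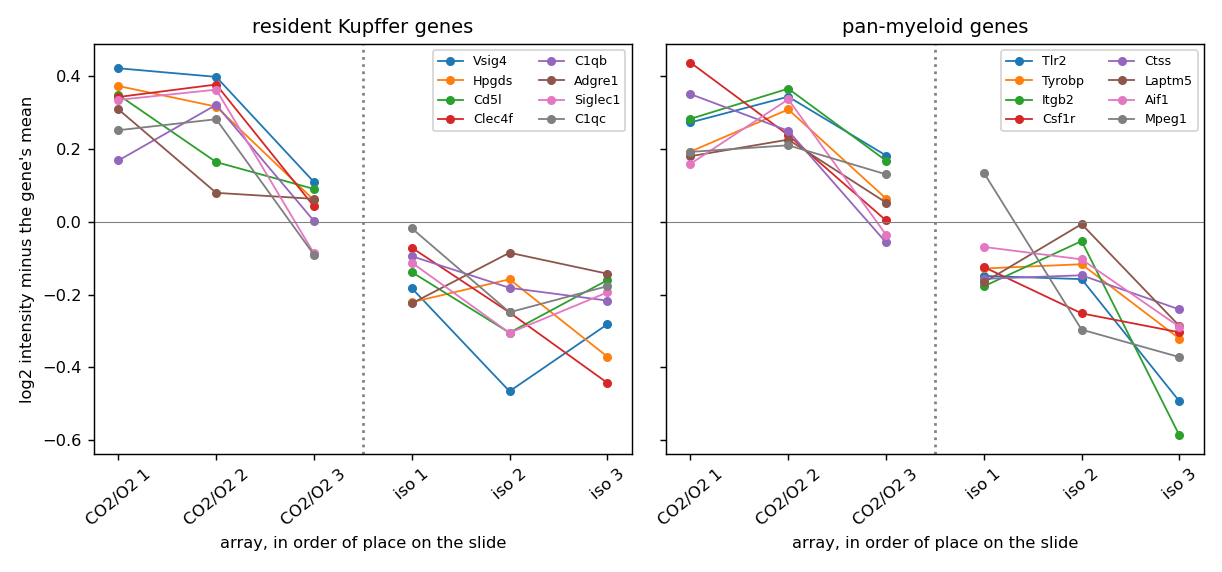
Log2 intensity minus the gene's mean over the 6 arrays (y axis) for the 8 resident Kupffer genes and the 8 pan-myeloid genes with the smallest p, on each array in order of its place on the slide (x axis; iso, isoflurane). The genes were chosen by their difference between the groups, so the distance between groups is a result of that choice. Within the CO2/O2 group, replicate 3 is the lowest for 16 of 16 genes drawn, a count over these chosen genes only. Over all 38 members, replicate 1 is above replicate 3 for 33, against 45.2% of all genes. Among members not drawn, replicate 3 is the highest of that group for Mrc1, Msr1 and Fcgr2b.

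Pan-myeloid genes had negative differences in 20 of 21, against 52.9% of all genes, with a median of -0.27 and a range from -0.54 to 0.23. In 9 of the 21 all isoflurane values lay below all CO2/O2 values, against 8.16% of all genes. The surface receptors came first. Tlr2, the receptor for bacterial lipoproteins, had values of 0.21, 0.29 and 0.12 after CO2/O2 and -0.21, -0.22 and -0.55 after isoflurane. The groups were well apart, with a difference of -0.53 ± 0.12 (limma adjusted p = 0.550). Itgb2, the shared beta chain of the leukocyte integrins, had values of 0.87, 0.95 and 0.76 against 0.41, 0.54 and 0.00, again without overlap. Its difference was -0.54 ± 0.15, and isoflurane replicate 3 was the lowest.

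Csf1r, the receptor for the growth factors on which macrophages depend, had values of 0.50, 0.30 and 0.06 under CO2/O2 and -0.06, -0.19 and -0.24 under isoflurane. It was the 1 member of 38 in which each next array along the slide read lower than the one before, against 0.595% of all genes, and its difference was -0.45 ± 0.13 (limma adjusted p = 0.578). Its second, dimmer probe read -1.39, -1.39 and -1.80 against -1.44, -1.41 and -1.66, with full overlap and a difference of 0.03 ± 0.15. The probes of Csf1r therefore did not give 1 answer. Tlr4, the receptor for endotoxin, had -0.27 ± 0.13 without overlap, and the endotoxin co-receptor Cd14 had -0.12 ± 0.17 with overlap. The Fc receptors Fcgr3a and Fcgr2b had -0.24 ± 0.18 and -0.06 ± 0.11, both with overlap.

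Among signalling adaptors, Tyrobp, which carries signals of many myeloid receptors, had values of 4.75, 4.86 and 4.62 after CO2/O2 and 4.43, 4.44 and 4.23 after isoflurane. The groups did not overlap, and the difference was -0.38 ± 0.11. Fcer1g, the common gamma chain of Fc receptors, had -0.22 ± 0.12 with a narrow overlap. Aif1, the calcium-binding protein also called Iba1, had values of 4.38, 4.56 and 4.18 against 4.15, 4.12 and 3.93, a difference of -0.31 ± 0.12 without overlap. Its other probes gave -0.40 and -0.38.

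Genes of lysosomes and granules had differences of both small and middling size. Ctss, a lysosomal protease of antigen-presenting cells, had values of 3.96, 3.86 and 3.56 against 3.45, 3.46 and 3.37, a difference of -0.36 ± 0.12 without overlap. Laptm5, a lysosomal membrane protein of leukocytes, had values of 3.95, 3.99 and 3.82 against 3.60, 3.76 and 3.48, a difference of -0.31 ± 0.11 without overlap. Mpeg1, which encodes the pore-forming perforin-2, had values of -1.70, -1.69 and -1.77 against -1.76, -2.19 and -2.27. Isoflurane replicate 1 lay among the CO2/O2 rats there, and the difference was -0.36 ± 0.15. The endosomal metal transporter Slc11a1 had -0.32 ± 0.16, the lysosomal marker Cd68 -0.31 ± 0.14 and the protease Lgmn -0.15 ± 0.08, the last without overlap. Lyz2, the myeloid lysozyme, had values of 5.00, 5.15 and 5.06 against 5.06, 5.06 and 4.78, with overlap and a difference of -0.10 ± 0.11. Its second probe gave 0.06.

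The remaining pan-myeloid genes include regulators. Spi1, which encodes the factor PU.1, had -0.24 ± 0.18 and Irf8, another myeloid transcription factor, -0.26 ± 0.17. With normexp background correction they had -0.10 and 0.01. Spi1 had -0.10 without isoflurane replicate 3, and Irf8 had -0.08 without CO2/O2 replicate 2. Cfp, the complement regulator properdin, had -0.16 ± 0.11. Cybb, the catalytic subunit of the phagocyte oxidase, was the 1 pan-myeloid gene with a positive difference, 0.23 ± 0.43. Its values were -1.84, -2.07 and -1.998 under CO2/O2 and -0.69, -2.21 and -2.31 under isoflurane. Isoflurane replicate 1 stood far above the other 5 rats, and without it the difference was -0.29.

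Of the 3 monocyte genes, Ccr2 and Itgam were near the limit of what the arrays could read, and Cx3cr1 was read well. Ccr2, the receptor by which monocytes leave the marrow, was above background in 1 of 3 CO2/O2 rats and in 0 of 3 isoflurane rats at both of its probes and was not tested. Itgam, the alpha chain CD11b of blood monocytes and neutrophils, was above background in 2 of 3 rats of each group and was not tested either. Cx3cr1, the fractalkine receptor, was read by 1 probe above background on all arrays, with values of 0.68, 0.45 and 0.66 after CO2/O2 and 1.04, 1.36 and 0.31 after isoflurane. The isoflurane rats held both the highest values and the lowest, and the difference was 0.31 ± 0.26 with a 95% interval from -0.34 to 0.95. Its other probe was above background in 1 CO2/O2 rat only. Cx3cr1 and Cybb were the 2 members with positive differences. A difference between the roles in their response was not tested.

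More than 1 probe was tested for 16 genes, which gives a second reading of the same RNA. In 13 of these 16 every probe had a negative difference. The spread between probes of a gene had a median of 0.07. In Csf1r, Mrc1 and Lyz2 the probes differed in sign, with values given above. Over all 57 tested probes, 52 had a negative difference, against 50.5% of all probes tested.

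**Figure D3:**
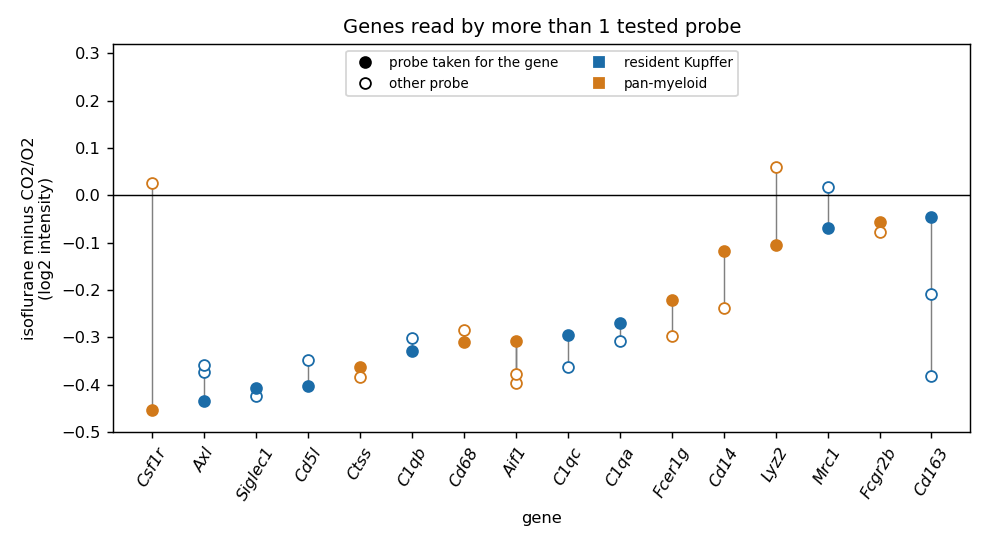
Difference between groups (isoflurane minus CO2/O2, log2 intensity, y axis) at each tested probe of the 16 genes with more than 1 (x axis), 3 rats per group. Filled points are the probe taken for the gene and open points its other probes. Most pairs lie close together, whereas for Csf1r, Lyz2 and Mrc1 the other probe lies above 0.

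The order of the arrays was much the same in resident and pan-myeloid genes. Mean values relative to all arrays were 0.27, 0.21 and -0.005 under CO2/O2 and -0.05, -0.19 and -0.23 under isoflurane for resident Kupffer genes. For pan-myeloid genes they were 0.17, 0.22 and -0.006 against -0.03, -0.12 and -0.23. CO2/O2 replicates 1 and 2 stood above the rest in both, while CO2/O2 replicate 3 and isoflurane replicate 1 were close to each other. CO2/O2 replicate 2 was above all isoflurane rats for 32 of 38 members and CO2/O2 replicate 3 for 19, against 26.3% and 28% of all genes. Within CO2/O2 rats, replicate 1 was above replicate 3 for 33 of 38 members, against 45.2% of all genes. Within isoflurane rats, replicate 1 was above replicate 3 for 32 of 38, against 54.1%. Arrays of the same group thus differed in these genes too, and rat and slide place cannot be told apart in this.

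The array with the lowest value separated the roles somewhat. Isoflurane replicate 2 held the lowest value for 8 of 16 resident Kupffer genes and for 2 of 21 pan-myeloid genes. Isoflurane replicate 3 held it for 6 of 16 and for 15 of 21. Among all genes these arrays were lowest for 23.3% and 22.8%. That split was seen in the data and was not tested. The highest value fell on CO2/O2 replicate 1 for 8 of 16 resident Kupffer genes and on CO2/O2 replicate 2 for 13 of 21 pan-myeloid genes, against 14.1% and 15% of all genes. CO2/O2 replicate 3 was highest for 2 of 38 members, against 18.2% of all genes. Along their slide places, the isoflurane arrays ran from high to low without a break for 11 of 38, against 19.7%.

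With a slope over slide place in the model, the median difference of resident Kupffer genes was -0.03, with 10 of 16 negative, and that of pan-myeloid genes -0.01, with 11 of 21 negative. Vsig4 then had -0.31 ± 0.24, Clec4f -0.00 ± 0.20 and Csf1r 0.01 ± 0.19. Cybb had 1.57 ± 0.72 and Fcgr3a -0.60 ± 0.35. With slide row as a block, where the comparison within row 1 has a single isoflurane rat, the medians were -0.24 and -0.22, with 14 of 16 and 19 of 21 negative. Vsig4 had -0.49 ± 0.18 in that fit and C1qa -0.08 ± 0.17.

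**Figure D4:**
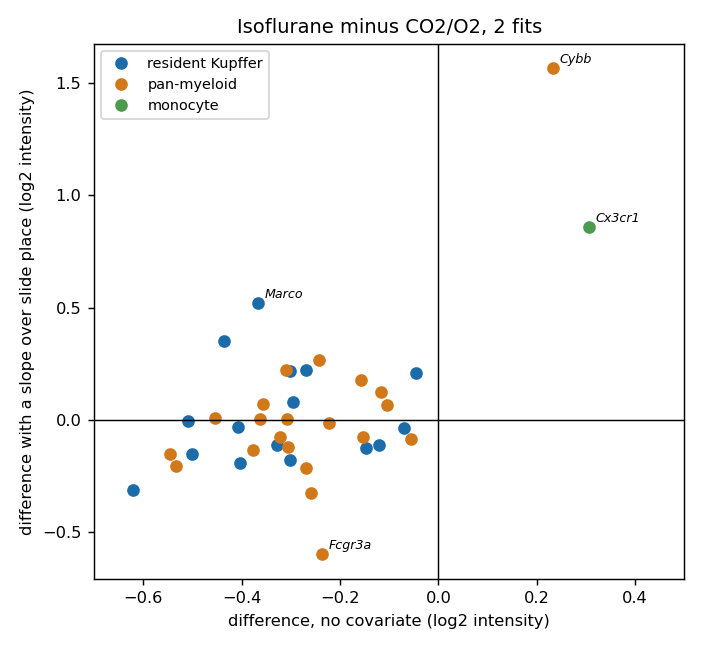
Difference between groups for each of the 38 tested genes (log2 intensity) without a covariate (x axis) and with a straight slope over place on the slide (y axis); each point is a gene, coloured by role. Most points lie left of 0 on the x axis but are spread on both sides of 0 on the y axis, where 21 of 38 are negative.

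Markers of other cells were read on the same arrays, where 52.9% of all genes tested had a negative difference. Of 6 genes shared by all leukocytes 6 had negative differences, with a median of -0.39 (Cd53 -0.48 ± 0.13, Lcp1 -0.38 ± 0.14, Ptprc -0.42 ± 0.17). Of 8 tested lymphocyte genes 8 were negative, with a median of -0.37, among them the T cell gene Cd8a at -0.54 ± 0.18, the protease Gzmb at -0.77 ± 0.27 and Klrb1a at -0.35 ± 0.13. Cd3e and Ncr1 of that list were not above background on all arrays of either group. The leukocyte mean was 0.24, 0.27 and 0.03 after CO2/O2 and -0.03, -0.04 and -0.48 after isoflurane, and the lymphocyte mean 0.27, 0.28 and 0.03 against 0.00, -0.06 and -0.53. The CO2/O2 rats took nearly the same order in these lists as in macrophage genes, whereas isoflurane replicate 3 lay lower. Other monocyte genes (Plac8, Ly86, Cd48 and S100a4) were negative in 4 of 4 tested, with a median of -0.48, while Vcan and F13a1 were too dim to test. Of 9 neutrophil genes 3 could be tested, with a median of -0.44, and Elane, Csf3r, Cxcr2, Mmp8 and Ngp were too dim. S100a8 had -0.44 ± 0.36, S100a9 -0.56 ± 0.34 and Camp -0.29 ± 0.24, all with overlap. The neutrophil mean was 0.28, 0.46 and -0.09 after CO2/O2 and 0.41, -0.36 and -0.70 after isoflurane, so isoflurane replicate 1 lay among the CO2/O2 rats. Of the dendritic cell genes Clec9a, Batf3 and Clec10a were tested, at -0.10, -0.25 and 0.27, while Xcr1 and Ccr7 were too dim.

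Cells that are not leukocytes gave smaller medians, apart from red cells and bile ducts. Sinusoidal endothelial genes had a median of -0.09 (Cdh5 0.18 ± 0.09, Pecam1 -0.13 ± 0.10, Oit3 -0.12 ± 0.15), stellate cell genes 0.02 (2 of 7 negative) and hepatocyte genes -0.08 (5 of 8 negative). Among all genes tested, 52.9% were negative. Bile duct genes had -0.33 (4 of 5 negative), with Spp1 at -1.19 ± 0.46, Krt19 at -0.02 ± 0.17 and Epcam at 0.08 ± 0.10. That median was the value of Krt7, which was above background in 1 of 3 isoflurane rats. Erythroid genes had -0.34, with Hbb at -0.45 ± 0.16 and Slc4a1 at -0.74 ± 0.21. The erythroid mean was 0.39, 0.06 and 0.04 under CO2/O2 and -0.12, 0.23 and -0.60 under isoflurane. In isoflurane replicate 2, Hbb (7.05) and Slc4a1 (-1.21) lay below every CO2/O2 rat, while Ahsp (-0.02) and Epb42 (-3.51) were at their highest. The part of blood left in the liver in the macrophage values was not tested. Over the 6 arrays, which all lists share, Fcgr2b followed the sinusoidal endothelial mean with r = 0.980, Mrc1 with 0.909 and Mertk with 0.660. Vsig4 did so with r = 0.212 and Clec4f with 0.087. With the leukocyte mean, r was 0.746 for Vsig4 and 0.937 for Clec4f, against -0.017 for Fcgr2b, -0.002 for Mrc1 and 0.154 for Mertk. These genes were picked out for this after their values were seen, and the cell of origin was not tested.

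**Figure D5:**
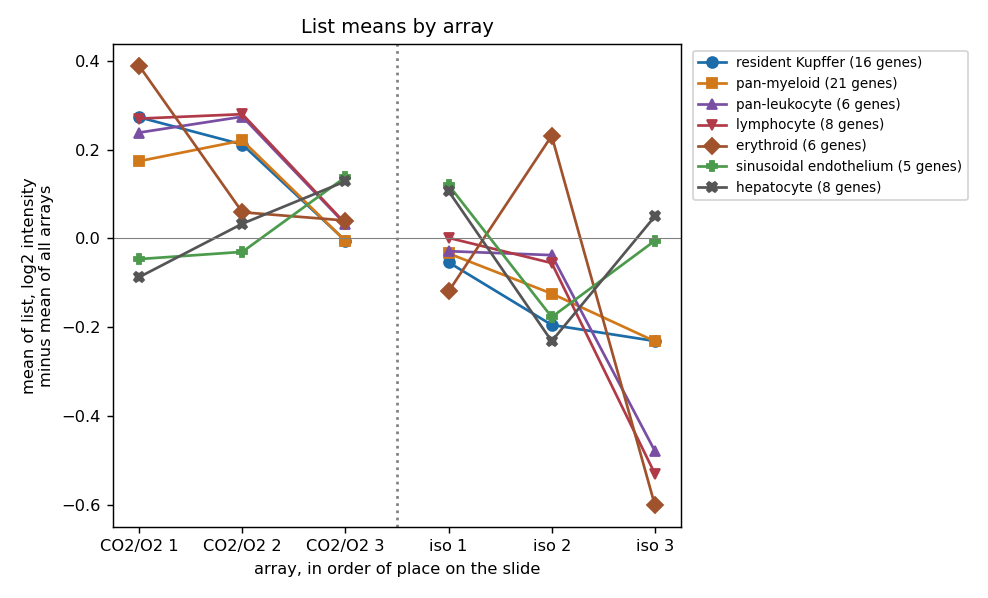
Mean of each list (log2 intensity minus the mean of all arrays, y axis) on each array in order of its place on the slide (x axis; iso, isoflurane), for the 2 main macrophage roles and 5 lists of other cells. Resident Kupffer and pan-myeloid means lie close together from 0.27 to -0.23, leukocyte and lymphocyte means run with them but reach -0.48 and -0.53 in isoflurane replicate 3, and endothelial and hepatocyte means do not follow that order.

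The genes outside the list whose values ran most like the mean of the resident Kupffer genes were sought among 3614 genes that varied at least as much as that mean. Over 6 arrays, r is high for many genes by the number compared, and it is given as a description. The 10 with the highest r, from 0.987 to 0.994, were Cd36, Cd36l1, Slco4a1, Ccl6, Ptgs1, Rpusd1, Akr1b7, Cd38, Apol7b and Npl. Cd36 encodes a fatty acid translocase and scavenger receptor that macrophages and hepatocytes both make. Its values were 4.57, 4.07 and 2.83 after CO2/O2 and 2.86, 1.72 and 1.59 after isoflurane, a difference of -1.76 ± 0.53 (limma adjusted p = 0.588). Its other probes gave -1.75 and -1.52, and Cd36l1, a near copy whose probe may read the same RNA, gave -1.55 ± 0.47. In Cd36, CO2/O2 replicate 3 lay just below isoflurane replicate 1, so the groups overlapped. Ccl6, a chemokine of macrophages, had -0.40 ± 0.11, and Ptgs1, a cyclooxygenase, -0.44 ± 0.12. Akr1b7 had the most negative difference of all genes tested, -5.62 ± 1.65 (limma adjusted p = 0.583). Its values were 3.58, 1.88 and -2.23 after CO2/O2 and -2.75, -4.29 and -6.60 after isoflurane. Akr1b7 and Rpusd1 were each above background in 1 of 3 isoflurane rats.

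Genes that control macrophage identity or carry the Csf1 signal had a median of -0.11, with 10 of 12 tested negative, against 52.9% of all genes. In limma 0 passed the threshold in either direction. The ligands of Csf1r had -0.07 ± 0.12 (Csf1) and -0.10 ± 0.11 (Il34). Tfec, a transcription factor of macrophages, had -0.28 ± 0.12, the iron exporter Slc40a1 -0.25 ± 0.14 and Rbpj, the mediator of Notch signals, -0.13 ± 0.08, with -0.28 and -0.36 at its other probes.

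Cytokines and chemokines that macrophages release had negative differences in 10 of 10 tested, against 52.9% of all genes, with a median of -0.37 and 0 past the threshold in limma. Ccl5, a chemokine made by T cells as well, had values of 3.66, 3.60 and 3.40 after CO2/O2 and 3.20, 2.14 and 2.74 after isoflurane. The groups did not overlap, and the difference was -0.86 ± 0.26 (limma adjusted p = 0.593). Cxcl16 had -0.44 ± 0.13 and Ccl3 -0.67 ± 0.25, both without overlap, and Il18 -0.41 ± 0.16 with overlap. Also from this list, named after their values were seen, Il10 had -0.34 ± 0.13, Tnf -0.18 ± 0.17 and Il1b -0.08 ± 0.27, all with overlap, and Il6 was too dim to test. Both probes of Il10 were above background in 3 of 3 CO2/O2 rats but in 1 of 3 isoflurane rats, and its other probe gave -0.03. The other probe of Il1b gave 0.03. With the slope over slide place, Ccl5 had -0.32 ± 0.53, Cxcl16 -0.31 ± 0.29 and Ccl3 0.25 ± 0.36.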

How the data were processed

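Liver RNA of 6 rats (3 per group) was read on 1-colour Agilent arrays, 1 rat per array, with Agilent Feature Extraction 10.7 per the submitters' processing notes. The deposited spot values are intensity values on a linear scale, corrected for background but not scaled between arrays, per the file headers. The authors' value table is a linear ratio: processed intensity over 1 number per array, near its 75th percentile, as a check against the scanner output showed for every probe within 1%. No count or depth exists for arrays, and precision is limited by their number.

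For this work the 75th percentile of an array's non-control probes was subtracted after taking log2. The 177 spots marked as outliers were left out. Tests took in the 34637 probes that either group had well above background in all its 3 rats, using limma 3.58.1 (R 4.3.3; lmFit and eBayes) with Benjamini-Hochberg adjustment over all probes tested and a threshold of 0.05. A gene took its brightest tested probe. The fit was tested on simulated data. Probes were named by accession through RefSeq genes of GRCr8 (27460 of 61657 matched); the headers name another build, so GRCr8 positions are given for promoter sequences only. Counts over lists stand beside the same over all genes, and no list was tested. The members, lists and rules were chosen with earlier results of these data known. All members are named; values by array are given for the 8 resident and 8 pan-myeloid genes with the smallest p, for the tested monocyte gene and for genes whose probes differ in sign, and for Marco, Cd163, Cybb and genes outside the list also after their values were seen. From each other list, genes were named by smallest p (at most 4 of a pathway, 3 of a cell type) or after their values were seen; a few genes of these lists are not reported here. The plots used Python 3.11.15 with pandas 2.3.3, numpy 2.4.6 and matplotlib 3.10.9.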

Additional observations from a re-analysis of the deposited data

How the results depend on the processing

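The 3 medians by role moved by less than the spread between rats with median centring, normexp correction, quantile normalization and the mean of a gene's probes. They were again -0.31, -0.27 and 0.31 with a filter on all 6 arrays or none, robust eBayes with a trend, kept outlier spots and the replicate block. The same held for the authors' value table, which is scaled in nearly the same way. These settings could hardly move the resident Kupffer and pan-myeloid medians, so they add no support. With the slide row block, which compares a single isoflurane rat, replicate 1, with the CO2/O2 rats, the medians were -0.24, -0.22 and 0.44. With place on the slide as a covariate the medians were -0.034 (resident Kupffer), -0.014 (pan-myeloid) and 0.86 (monocyte, that is Cx3cr1), against -0.31, -0.27 and 0.31, and 15 members changed sign. The count of members past the threshold was 0 in each of these fits and 15 at an unadjusted p of 0.05. With the replicate block the medians were -0.31, -0.27 and 0.31, with 0 members past the threshold; same-numbered arrays deviated together with r of only 0.114, 0.021 and 0.060, so the numbers were not taken as a pairing. With an array left out, the medians ran from -0.42 to -0.24 (resident Kupffer), from -0.37 to -0.19 (pan-myeloid) and from 0.08 to 0.66 (monocyte), and 0 members passed each time; the 0.66, without isoflurane replicate 3, is over 2 genes then bright enough to test, and Cx3cr1 had 0.60 there. The difference of 19 of 38 members moved by over 1.5 times or changed sign with 1 array or another left out. Signs changed with an array left out for Cd163 (0.03) and Cd14 (0.01) without CO2/O2 replicate 1, for Mrc1 and Fcgr2b without CO2/O2 replicate 3 (0.01 and 0.01) or isoflurane replicate 2 (0.03 and 0.02), and for Cybb without isoflurane replicate 1 (-0.29). Dim probes, such as those of Ccr2 and Itgam, carry no order.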
